A study of Mus musculus with 12 samples.

Results

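Transcript levels of 10 genes that carry carbon from threonine, serine and glycine into the folate pool were compared in mouse embryonic stem cells (mESCs) grown in serum or in 2i medium. The genes were chosen by name for their role, with earlier results of these data known. They are Tdh, Gcat, Gldc, Amt, Gcsh, Dld, Shmt1, Shmt2, Mthfd1l and Mthfd2, which are 10 of the 39017 genes measured. All 10 passed the filter on low counts, as did 17885 genes in total.

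Poly(A) RNA was sequenced from 12 libraries, with 3 biological replicates in each of 4 groups. J1 cells are male and wild-type. 3B3-3l, which the study calls 3B3L, has Dnmt3a-/- and Dnmt3b-/- alleles and carries transgenes for Dnmt3b and Dnmt3l, both driven by the constitutive CAG promoter, which keep DNA methylation high in a medium that would otherwise lower it. Dnmt3b and Dnmt3l encode a DNA methyltransferase and its non-catalytic partner. Each line was grown in serum medium, which is DMEM with fetal calf serum and LIF at 500 U/ml per the labels, and in 2i medium. The 2i medium has a serum-free N2B27 base with 1 uM PD0325901, a MEK inhibitor, 3 uM CHIR99021, a GSK3 inhibitor, and LIF at 1000 U/ml. The methods name the same dose of LIF for both media. Inhibitors, base medium, nutrients and, per the labels, LIF dose changed together, so their effects cannot be told apart. Feeder cells were used for J1 in serum, and were removed ahead of RNA extraction, while 3B3-3l was grown on gelatin. Surface and line therefore cannot be told apart in serum. Per the methods, J1 cells were also taken off feeders for 2i, so that medium and feeders cannot be told apart in that line. Only 1 line of each genotype was used, and 3B3-3l was derived by drug selection.

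Threonine dehydrogenase, encoded by Tdh, oxidises threonine in mitochondria, and the ligase encoded by Gcat splits the product into glycine and acetyl-CoA. The glycine cleavage system then breaks glycine down to carbon dioxide, ammonia and a methylene group that is passed to tetrahydrofolate. Its parts are the decarboxylase Gldc, the lipoyl carrier Gcsh, the aminomethyltransferase Amt and the dehydrogenase Dld, which is shared with the pyruvate and 2-oxoglutarate dehydrogenase complexes. Serine is converted to glycine, with transfer of the same kind of 1-carbon unit, by Shmt2 in mitochondria and Shmt1 in the cytosol. Mthfd2 oxidises the mitochondrial unit and Mthfd1l releases it as formate, which leaves for the synthesis of purines and thymidylate and for methylation of homocysteine to methionine. Mouse ES cells are known for high threonine dehydrogenase activity and for a need of threonine in the medium.

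Libraries held 37050652 to 44515395 estimated reads, so that a floor of 3 reads lay at 0.0674 to 0.081 CPM (counts scaled by TMM library size) and every level given here for the 10 genes lay far above it. The genes altered in 3B3-3l were examined by level. Dnmt3b lay at 866 to 936 CPM in the 6 libraries of 3B3-3l, against 404 to 427 in J1 serum and 41.0 to 47.2 in J1 2i. Dnmt3a lay lower in 3B3-3l than in J1 in both media, at 29.4 to 34.3 against 166 to 167 CPM in serum and 4.01 to 5.08 against 38.9 to 44.4 CPM in 2i, so that reads of the disrupted gene remained. Dnmt3l lay higher in 3B3-3l than in J1 in both media, at 448 to 511 against 285 CPM in serum and 285 to 294 against 47.9 to 55.5 CPM in 2i, and in 3B3-3l was lower in 2i than in serum. Markers of ES cells were high throughout, with a summed level of 6 genes (Pou5f1, Sox2, Nanog, Zfp42, Esrrb and Dppa5a) of 3905 to 5931 CPM. That sum was 4649 to 4716 CPM in J1 serum, 4654 to 5437 in J1 2i, 3905 to 4454 in 3B3-3l serum and 5666 to 5931 in 3B3-3l 2i. Its members went different ways from serum to 2i. Medians of Sox2 fell (361 to 213 CPM in J1, 327 to 251 in 3B3-3l), and those of Nanog rose (305 to 632 in J1, 349 to 594 in 3B3-3l). The median of Zfp42 fell in J1 (932 to 734) and rose in 3B3-3l (812 to 1090). The summed level of 11 fibroblast genes moved with medium in both lines, from 110.3 to 122.4 CPM in J1 serum to 63.29 to 67.57 in J1 2i, and from 154.4 to 175.8 in 3B3-3l serum to 79.45 to 81.91 in 3B3-3l 2i. In 2i, 5 of the 11 (Col3a1, Dcn, Lum, Postn and Twist2) had at most 3 reads in a whole group, and in each serum group 1, Lum, did. Fbln1 did not fall, with medians of 40.6 CPM in J1 serum, 40.1 in J1 2i, 48.9 in 3B3-3l serum and 56.8 in 3B3-3l 2i, and made up most of the sum in 2i. The sum of 6 primitive endoderm genes was 8.079 to 8.533 CPM in J1 serum, 5.718 to 6.413 in J1 2i, 14.58 to 16.17 in 3B3-3l serum and 6.97 to 7.253 in 3B3-3l 2i. Its members went opposite ways, with medians of Dab2 lower in 2i (5.15 and 1.34 CPM in J1, 8.75 and 1.97 in 3B3-3l) and of Gata4 higher (2.53 and 4.24 in J1, 3.23 and 4.26 in 3B3-3l). Genes of liver, a tissue with high glycine cleavage, summed to at most 0.3586 CPM in any library, with Ttr at 0 reads in all 12. The part of these cell type differences in the results was not tested. In bulk RNA, fewer cells of a type and less RNA per cell cannot be told apart.

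In 2i, the 2 genes of threonine breakdown and the genes Amt, Shmt2 and Mthfd2 were higher than in serum in both lines, while Gldc was lower in both. In J1, 8 of the 10 genes were called at an edgeR adjusted p under 0.05, 5 higher and 3 lower in 2i, where 66.1% of all tested genes were called (33.2% higher and 32.9% lower). In 3B3-3l, 8 were called, 6 higher and 2 lower, against a background of 65.4% (32.7% higher and 32.7% lower). Both counts are close to the background, so they are no result about the 10 genes as a group. The median log2 fold change of the 10 genes was 0.27 in J1 and 0.44 in 3B3-3l, beside 0.01 over all tested genes in each line. Libraries of the media did not overlap for 8 of the 10 genes in J1 (68.7% of all tested genes) and for 9 in 3B3-3l (69.6%).

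**Figure D1:**
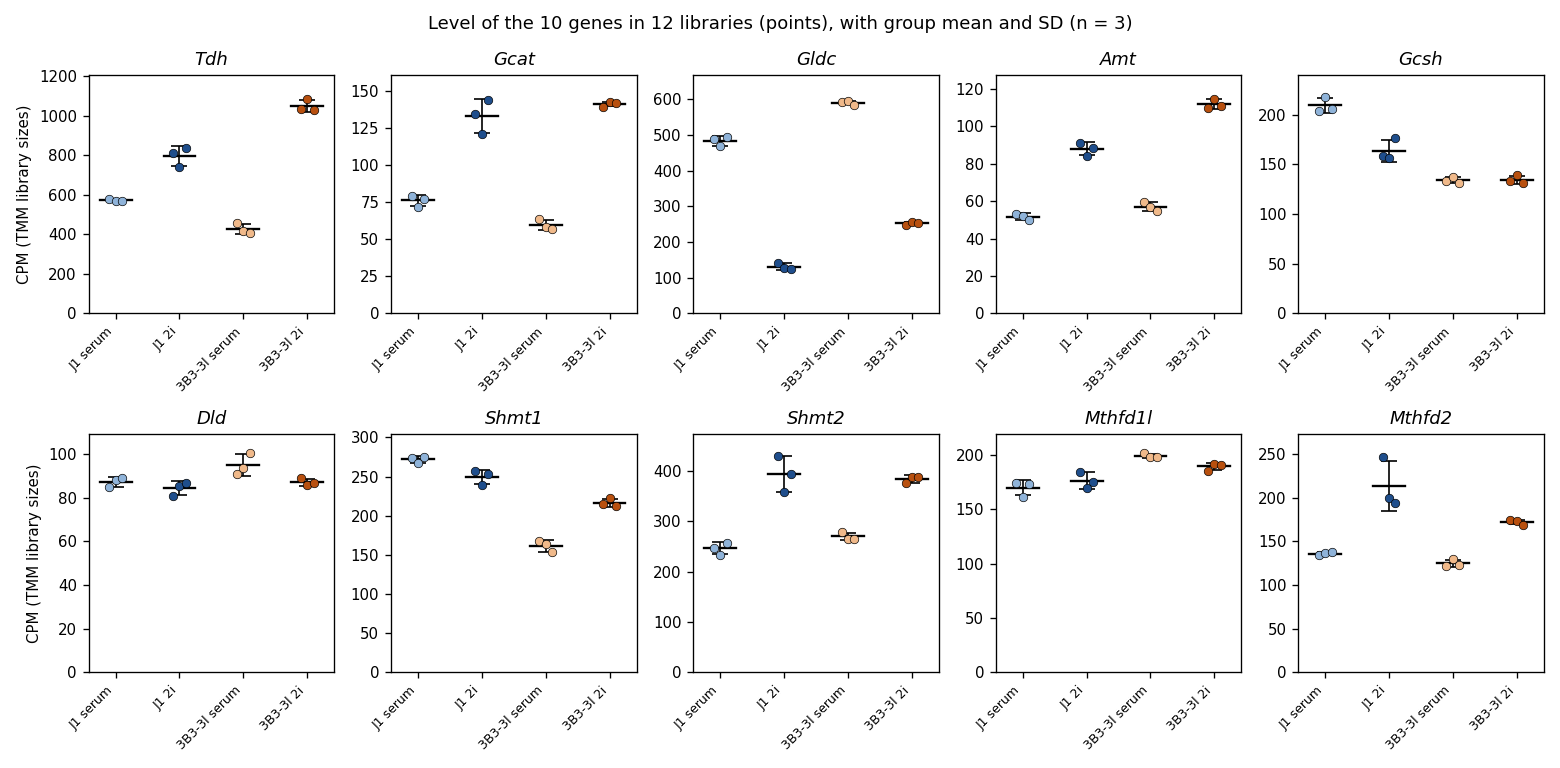
Levels of the 10 genes in CPM (vertical axes, each from 0) in the 12 libraries, by group (horizontal axes). Points are libraries, long bars group means and error bars SD (n = 3). Tdh, Gcat, Amt, Shmt2 and Mthfd2 stand higher in 2i than in serum in both lines and Gldc lower, while Dld spans 80.79 to 100.2 CPM over all libraries.

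Tdh (chromosome 14, 63492347 to 63509092 in GRCm38, ENSMUSG00000021953), the dehydrogenase that starts threonine breakdown, was at 577.7, 567.9 and 570.6 CPM in the 3 J1 serum libraries and at 813.8, 741.2 and 837.6 in J1 2i. In 3B3-3l it was at 458.6, 416.2 and 407.9 CPM in serum and at 1033, 1084 and 1032 CPM in 2i. No library of 1 medium overlapped the other, and the 3B3-3l groups were the lowest and the highest of the 4. Tdh rose 1.39-fold in J1 (log2 fold change 0.48 ± 0.06 SE, edgeR adjusted p = 1.45e-06) and 2.46-fold in 3B3-3l (1.3 ± 0.06, edgeR adjusted p = 9.35e-12). The effect of 2i was larger in 3B3-3l than in J1 by 0.82 ± 0.08 on the log2 scale (edgeR adjusted p = 1.69e-06).

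Gcat (chromosome 15, 79030874 to 79042531, ENSMUSG00000006378), which follows Tdh in the pathway, was at 79.63, 72.1 and 77.53 CPM in J1 serum and 134.8, 120.9 and 143.9 in J1 2i. In 3B3-3l, the values were 63.72, 58.49 and 56.96 CPM in serum and 139.7, 142.5 and 142.2 CPM in 2i. All 2i libraries lay above all serum libraries, and the 2i libraries of the lines overlapped. Gcat rose 1.74-fold in J1 (0.8 ± 0.06, edgeR adjusted p = 1.59e-08) and 2.37-fold in 3B3-3l (1.24 ± 0.06, edgeR adjusted p = 7.36e-11), with a difference between the lines of 0.44 ± 0.09 (edgeR adjusted p = 0.00136). Both genes were thus higher in each of the 6 2i libraries than in any serum library, and both had their larger change in 3B3-3l.

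Gldc (chromosome 19, 30098441 to 30175441, ENSMUSG00000024827) encodes the glycine decarboxylase, the step that commits glycine to cleavage. It was at 487.8, 467.7 and 495.2 CPM in J1 serum and 141.8, 126.4 and 125.3 in J1 2i, and at 591.3, 594.1 and 584.5 CPM in 3B3-3l serum and 248.9, 257.2 and 252.6 CPM in 3B3-3l 2i. The 4 groups did not overlap in any pair, and the lines kept the same order in both media. Gldc fell by 1.88 ± 0.05 on the log2 scale in J1, which is 3.69-fold lower in 2i (edgeR adjusted p = 5.83e-14), and by 1.22 ± 0.05 in 3B3-3l, 2.33-fold lower (edgeR adjusted p = 5.22e-12). The fall was smaller in 3B3-3l, with a difference of the 2i effects of 0.66 ± 0.07 (edgeR adjusted p = 5.02e-06).

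Amt (chromosome 9, 108296905 to 108302302, ENSMUSG00000032607), the aminomethyltransferase of the same complex, moved the other way. Its levels were 53.19, 52.21 and 49.86 CPM in J1 serum, 91.16, 84.31 and 88.46 in J1 2i, 59.28, 57.13 and 54.93 in 3B3-3l serum and 110.0, 114.8 and 110.8 in 3B3-3l 2i. Every 2i library was above every serum library. Amt rose 1.7-fold in J1 (0.77 ± 0.05, edgeR adjusted p = 1.28e-09) and 1.96-fold in 3B3-3l (0.97 ± 0.05, edgeR adjusted p = 5.73e-11). The difference between these effects was called (0.2 ± 0.07, edgeR adjusted p = 0.0318) but was close to the threshold. It was called in 9 of the 19 alternative analyses other than a 2-fold threshold, with edgeR or DESeq2 adjusted p of 0.0208 to 0.136 over them. The call was lost without any 1 of J1 serum replicates 1 to 3 (0.16, 0.17 and 0.2), J1 2i replicate 2 (0.18), 3B3-3l serum replicates 2 and 3 (0.21 and 0.18) and 3B3-3l 2i replicates 2 and 3 (0.16 and 0.21). It was also lost with no filter on low counts (0.21) and with at least 10 counts in every library (0.17).

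Gcsh (chromosome 8, 116981967 to 116993498, ENSMUSG00000034424), which carries the glycine carbon on its lipoyl arm, was at 203.8, 217.8 and 205.7 CPM in J1 serum and 158.8, 155.8 and 176.0 in J1 2i. In 3B3-3l it was at 133.1, 137.2 and 131.4 CPM in serum and 133.2, 138.8 and 131.1 CPM in 2i. The media thus did not overlap in J1 and covered nearly 1 range in 3B3-3l. Gcsh fell in J1 by 0.35 ± 0.05 (edgeR adjusted p = 1.7e-05), while its value in 3B3-3l was 0.0 ± 0.05 (edgeR adjusted p = 0.944), with a sign that changed under other scalings. The difference between the lines' effects was called (0.36 ± 0.07, edgeR adjusted p = 0.00142). Gcsh has 8 loci elsewhere in the mouse genome that match its transcript at 87.8% to 95.4% identity over 68.9% to 84.9% of its length, 4 of them with no annotated gene, so its reads may be shared with them and its values are uncertain to that extent. Of the annotated genes that overlap these loci, the highest was Spata5, at 54.2 to 67.8 CPM over the 12 libraries. That is the level of the whole gene, not of the matching stretch. Gm12564, which overlaps the same locus as Spata5, had at most 0.0726 CPM. Gm15047, at another of the loci, had at most 0.0545 CPM.

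Dld (chromosome 12, 31331562 to 31351471, ENSMUSG00000020664), the dehydrogenase that also serves other complexes, stayed between 80.79 and 100.2 CPM in all 12 libraries. Its mean was 87.22 ± 2.27 CPM in J1 serum and 84.28 ± 3.08 CPM in 2i in the same line (SD, n = 3), and the log2 difference was -0.05 ± 0.05 (edgeR adjusted p = 0.392). In 3B3-3l it fell from 94.78 ± 4.92 to 87.07 ± 1.6 CPM, by 0.12 ± 0.05 on the log2 scale (edgeR adjusted p = 0.0392). That call was lost without 3B3-3l serum replicate 2 (-0.13) or 3 (-0.08) and without 3B3-3l 2i replicate 1 (-0.14), 2 (-0.14) or 3 (-0.12), with edgeR or DESeq2 adjusted p of 0.00382 to 0.191 over the alternatives. It was also lost with no filter on low counts (-0.13). The 4 genes of the glycine cleavage system therefore showed no common direction. Gldc fell, Amt rose, and Gcsh and Dld were each called lower in 1 line.

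**Figure D2:**
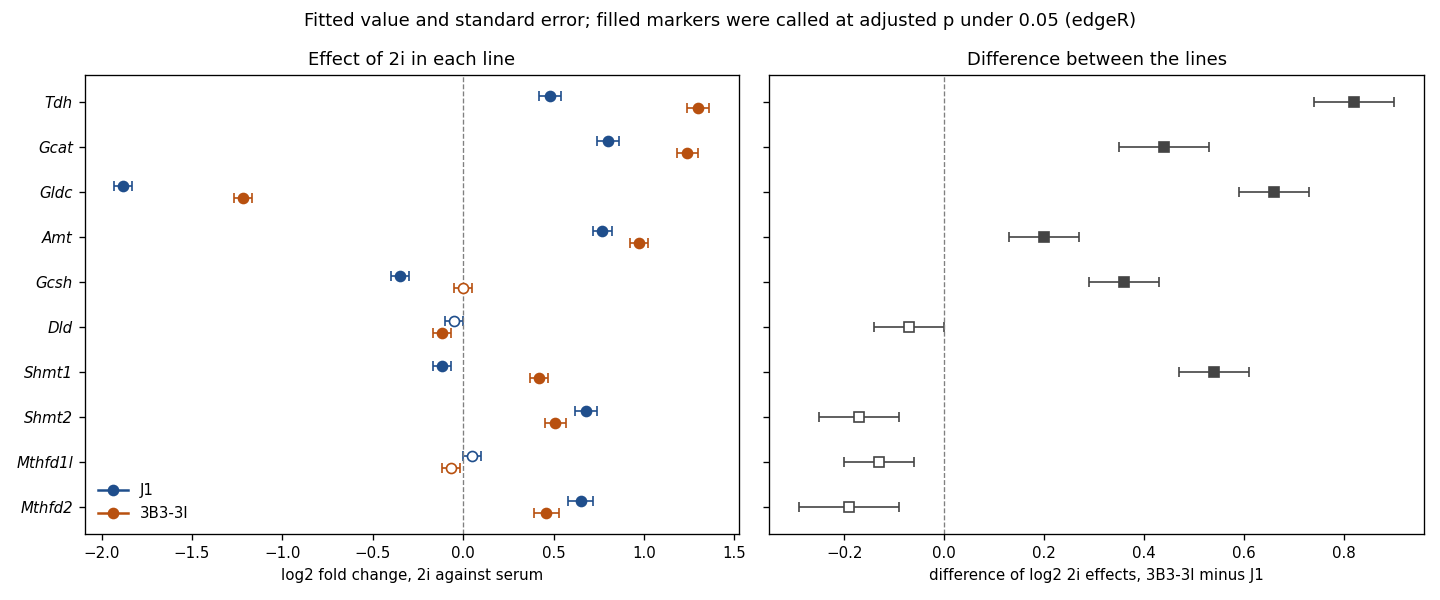
Log2 fold change of each gene between 2i and serum in J1 (blue) and 3B3-3l (orange) on the left, and the difference between these effects on the right, with standard errors. Filled markers were called at an edgeR adjusted p under 0.05, and the 6 filled markers on the right all lie above 0.

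Shmt2 (chromosome 10, 127517123 to 127522444, ENSMUSG00000025403), the mitochondrial serine hydroxymethyltransferase, was at 247.7, 233.8 and 257.5 CPM in J1 serum and 429.2, 357.9 and 394.7 in J1 2i. In 3B3-3l it was at 279.0, 265.8 and 265.8 CPM in serum and 375.7, 388.2 and 388.9 CPM in 2i. All 2i libraries were higher than all serum libraries. Shmt2 rose 1.6-fold in J1 (0.68 ± 0.06, edgeR adjusted p = 6.09e-08) and 1.42-fold in 3B3-3l (0.51 ± 0.06, edgeR adjusted p = 1.59e-06), and the difference of -0.17 ± 0.08 was not called (edgeR adjusted p = 0.138). Without J1 2i replicate 2 it was called at -0.23, and without J1 2i replicate 1 it stood at -0.1 (edgeR adjusted p = 0.354). Ndufa4l2, which lies on the opposite strand over part of Shmt2, had 12.5 ± 3.29, 17.5 ± 4.13, 17.6 ± 1.9 and 2.73 ± 0.86 CPM in J1 serum, J1 2i, 3B3-3l serum and 3B3-3l 2i. The counting was strand-aware, and the levels of Ndufa4l2 were far below those of Shmt2.

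Shmt1 (chromosome 11, 60788897 to 60811265, ENSMUSG00000020534), the cytosolic enzyme, was at 273.5, 267.2 and 275.3 CPM in J1 serum and 256.7, 239.6 and 253.4 in J1 2i. In 3B3-3l it was at 167.7, 163.9 and 153.2 CPM in serum and at 214.7, 222.1 and 212.1 CPM in 2i. The J1 libraries were thus higher in serum and the 3B3-3l libraries higher in 2i, with no overlap between any 2 of the 4 groups. In 3B3-3l, Shmt1 rose 1.34-fold (0.42 ± 0.05, edgeR adjusted p = 8.8e-07). In J1 it fell by 0.12 ± 0.05 (edgeR adjusted p = 0.0306). This call failed with transcript length offsets (-0.08) and without J1 serum replicate 1 (-0.12) or 3 (-0.11) or J1 2i replicate 2 (-0.09), over a range of edgeR or DESeq2 adjusted p of 0.00891 to 0.174. The difference between the effects was 0.54 ± 0.07 (edgeR adjusted p = 1.62e-05) and was called in all 19 alternatives other than the 2-fold threshold.

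Mthfd2 (chromosome 6, 83305704 to 83326011, ENSMUSG00000005667), which oxidises the mitochondrial 1-carbon unit, was at 133.8, 136.3 and 137.7 CPM in J1 serum and 246.6, 199.2 and 194.1 in J1 2i. In 3B3-3l it was at 121.9, 129.6 and 122.5 CPM in serum and 174.0, 173.0 and 169.1 CPM in 2i. The media did not overlap in either line, and J1 2i replicate 1 was the highest library. Mthfd2 rose 1.57-fold in J1 (0.65 ± 0.07, edgeR adjusted p = 6.62e-07) and 1.38-fold in 3B3-3l (0.46 ± 0.07, edgeR adjusted p = 2.63e-05). The difference of -0.19 ± 0.1 was not called (edgeR adjusted p = 0.165), was called at -0.25 without J1 2i replicate 3, and stood at -0.07 without J1 2i replicate 1 (edgeR adjusted p = 0.46).

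Mthfd1l (chromosome 10, 3972892 to 4167081, ENSMUSG00000040675), the formyltetrahydrofolate synthetase that acts after Mthfd2, was at 174.3, 161.6 and 172.9 CPM in J1 serum and 184.3, 169.3 and 174.9 in J1 2i. In 3B3-3l it was at 201.3, 197.8 and 198.1 CPM in serum and 185.5, 191.7 and 190.7 CPM in 2i. The J1 media overlapped, and the 3B3-3l media did not. Neither change was called, at 0.05 ± 0.05 in J1 (edgeR adjusted p = 0.308) and -0.07 ± 0.05 in 3B3-3l (edgeR adjusted p = 0.179). Within the mitochondrial route, Shmt2 and Mthfd2 rose and Mthfd1l was not called in either line.

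The lines differed in their response to 2i, by a called difference, for 6 of the 10 genes (Tdh, Gcat, Gldc, Amt, Gcsh and Shmt1), all with a higher value in 3B3-3l. Of all tested genes, 34.7% had one in either direction, 16.3% higher and 18.3% lower. The median difference of the 10 genes was 0.28, beside -0.03 over all tested genes. For Tdh, Gcat and Amt the positive difference stood for a larger rise, for Gldc for a smaller fall, for Gcsh for a fall in J1 that was not seen in 3B3-3l, and for Shmt1 for a rise in 3B3-3l beside a small fall in J1.

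The lines were then compared within each medium. In 2i, 6 of the 10 genes were called between 3B3-3l and J1, against 45.9% of all tested genes, with Tdh, Gldc and Amt higher in 3B3-3l (23.0% of tested genes were) and Gcsh, Shmt1 and Mthfd2 lower (22.9%). The libraries of the lines did not overlap for 7 of the 10 (52.6% of tested genes), and the median difference was 0.07, beside 0.01 over all genes. The largest of these differences was that of Gldc, at 252.9 ± 4.18 CPM in 3B3-3l and 131.2 ± 9.24 CPM in J1 (SD, n = 3), 1.93-fold higher (0.95 ± 0.05, edgeR adjusted p = 1.35e-09). Tdh was 1.32-fold higher (0.4 ± 0.06, edgeR adjusted p = 2.78e-05) and Amt 1.27-fold higher (0.35 ± 0.05, edgeR adjusted p = 2.59e-05). Mthfd2 was lower by 1.24-fold (-0.31 ± 0.07, edgeR adjusted p = 0.00186), Gcsh by 1.22-fold (-0.28 ± 0.05, edgeR adjusted p = 0.000327) and Shmt1 by 1.16-fold (-0.21 ± 0.05, edgeR adjusted p = 0.00177). Without J1 2i replicate 1 the value for Mthfd2 was -0.19, still called. The call for Shmt1 was lost with transcript length offsets (-0.11, edgeR adjusted p = 0.087). Gcat (0.09 ± 0.06), Dld (0.05 ± 0.05), Shmt2 (-0.04 ± 0.06) and Mthfd1l (0.1 ± 0.05) were not called (edgeR adjusted p = 0.281, 0.467, 0.66 and 0.0797), and Mthfd1l was called without J1 2i replicate 1 (0.14).

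In serum, 7 of the 10 genes were called between the lines, against 38.7% of all tested genes, 3 higher (21.5% of tested genes) and 4 lower (17.2%) in 3B3-3l. The libraries did not overlap for any of the 10, as for 50.9% of tested genes, and the median difference was 0.0, beside 0.03 over all genes. Shmt1 was 1.68-fold lower in 3B3-3l (-0.75 ± 0.05, edgeR adjusted p = 1.54e-08) and Gcsh 1.56-fold lower (-0.64 ± 0.05, edgeR adjusted p = 2.07e-07). Tdh (-0.42 ± 0.06, edgeR adjusted p = 2.61e-05) and Gcat (-0.36 ± 0.06, edgeR adjusted p = 0.000439) were lower too. Gldc (0.29 ± 0.05, edgeR adjusted p = 0.00031) and Mthfd1l (0.23 ± 0.05, edgeR adjusted p = 0.000976) were higher. Amt was called higher at 0.14 ± 0.05 (edgeR adjusted p = 0.0341). It was not called without J1 serum replicate 2 (0.15) or 3 (0.12), 3B3-3l serum replicate 1 (0.11) or 2 (0.14), or 3B3-3l 2i replicate 3 (0.14), with edgeR or DESeq2 adjusted p of 0.0215 to 0.178 over the alternatives. Nor was Amt called with no filter on low counts (0.12) or in a fit to the 6 libraries compared (0.12). Dld (0.12 ± 0.05), Shmt2 (0.13 ± 0.06) and Mthfd2 (-0.12 ± 0.07) were not called (edgeR adjusted p = 0.0663, 0.092 and 0.182). Each was called without 1 library, Dld at 0.15 without 3B3-3l serum replicate 1, Shmt2 at 0.13 without J1 2i replicate 2 and Mthfd2 at -0.13 without J1 2i replicate 1. Dld was also called with at least 10 counts in every library (0.13), and Mthfd2 in a fit to the 6 libraries compared (-0.15). Tdh, then, was lower in 3B3-3l than in J1 in serum and higher in 2i, while Gldc was higher and Gcsh and Shmt1 were lower in 3B3-3l in both media.

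Levels of different genes were compared per length, as CPM per kilobase of effective transcript length. Tdh was the highest of the 10 in every group, at 358.7 ± 3.37 CPM per kilobase in J1 serum, 489.3 ± 28.7 in J1 2i, 266.4 ± 17.4 in 3B3-3l serum and 646.9 ± 20.3 in 3B3-3l 2i (SD, n = 3). These levels lay at percentiles 97.8 to 99.1 of the 16920 genes that passed the filter on low counts and had a per-length level. Gcat, the next enzyme of that route, had a much lower level, with a ratio of Tdh to Gcat of 9.67 ± 0.343, 7.49 ± 0.246, 8.95 ± 0.0659 and 9.42 ± 0.312 in the same order of groups.

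Gldc changed its place most. It was of rank 4 among the 10 in J1 serum (134.8 ± 4.1 CPM per kilobase) and of rank 2 in 3B3-3l serum (164.9 ± 1.22). Those levels of Gldc lay at percentiles 95.4 and 96.4 of the same 16920 genes. In J1 2i it was last, at 36.65 ± 2.56 and percentile 81.6, with libraries that overlapped those of Dld (40.8 ± 1.52). In 3B3-3l 2i it was of rank 7, at 70.43 ± 1.1 and percentile 90.3, and overlapped Gcat (68.65 ± 0.705). The ratio of Gldc to Amt was 2.78 ± 0.163 in serum and 0.452 ± 0.0145 in 2i for J1, and 3.06 ± 0.051 and 0.691 ± 0.00567 for 3B3-3l. The ratio of Gcsh to Gldc was 1.28 ± 0.0742 and 3.74 ± 0.413 for J1, and 0.689 ± 0.0277 and 1.57 ± 0.00962 for 3B3-3l. Transcripts of the decarboxylase were therefore more abundant per length than those of Amt in serum and less abundant in 2i, in every library of both lines. The ratio of Tdh to Gldc was 2.66 ± 0.0633 and 13.4 ± 0.958 in J1 serum and 2i, and 1.62 ± 0.104 and 9.18 ± 0.172 in 3B3-3l.

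**Figure D3:**
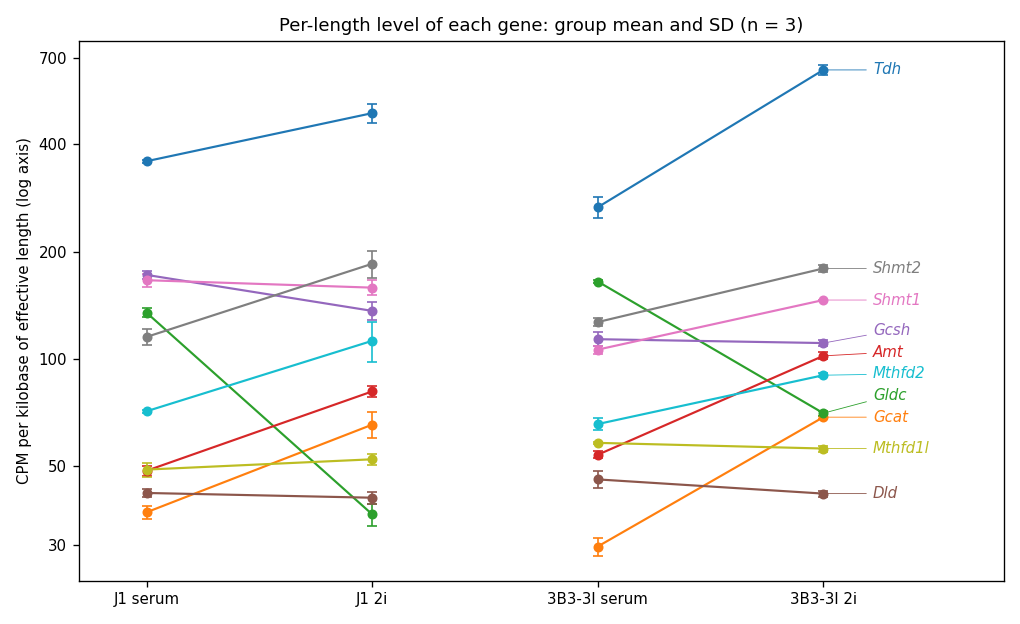
Level of each gene per length (CPM per kilobase of effective length, log axis) in the 4 groups, as mean and SD of 3 libraries, with lines joining the media within each cell line. Tdh is highest in all groups, and Gldc drops from 134.8 to 36.65 (J1) and from 164.9 to 70.43 (3B3-3l).

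The mitochondrial and the cytosolic serine hydroxymethyltransferase also changed order. The ratio of Shmt2 to Shmt1 per length was 0.693 ± 0.00584 in J1 serum and 1.17 ± 0.0611 in J1 2i, and 1.19 ± 0.0251 and 1.23 ± 0.0272 in 3B3-3l serum and 2i (SD, n = 3). Shmt1 was thus above Shmt2 in J1 serum alone, at 166.3 ± 6.94 against 115.3 ± 5.74 CPM per kilobase. In J1 2i, Shmt2 was at 184.9 ± 16.3 and Shmt1 at 158.5 ± 7.58 CPM per kilobase. The ratio of Mthfd2 to Mthfd1l was 1.46 ± 0.0674 and 2.14 ± 0.204 in J1 serum and 2i, and 1.13 ± 0.0478 and 1.61 ± 0.0385 in 3B3-3l. In J1 serum, neighbours with overlapping libraries were Gcsh (172.1 ± 4.68) with Shmt1, and Mthfd1l (48.93 ± 2.19) with Amt (48.57 ± 1.61). The neighbours in the order of 3B3-3l serum did not overlap, from Tdh and Gldc down to Dld (45.92 ± 2.58) and Gcat (29.77 ± 1.77).

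The start regions of the 5 genes that were called in the same direction in both lines and are in the RefSeq promoter table of GRCm38.p6 are shown because the cell lines compared differ in their means of DNA methylation, which falls on CG. Tdh was not in that table. Each sequence runs from 250 bases before the gene start to 20 after it, 5′ to 3′ on the strand of the gene, with CG in capitals. The start listed for Mthfd2 lies inside the span of the gene given above, so its window is that of 1 start among several possible.
Gcat, chr15:79030624-79030893, + strand: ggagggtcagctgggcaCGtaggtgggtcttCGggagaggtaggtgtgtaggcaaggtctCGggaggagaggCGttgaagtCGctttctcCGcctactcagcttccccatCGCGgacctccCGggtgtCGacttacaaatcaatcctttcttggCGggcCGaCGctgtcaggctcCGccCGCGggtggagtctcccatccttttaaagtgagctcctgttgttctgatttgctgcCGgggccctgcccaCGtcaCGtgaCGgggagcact
Gldc, chr19:30175422-30175691, - strand: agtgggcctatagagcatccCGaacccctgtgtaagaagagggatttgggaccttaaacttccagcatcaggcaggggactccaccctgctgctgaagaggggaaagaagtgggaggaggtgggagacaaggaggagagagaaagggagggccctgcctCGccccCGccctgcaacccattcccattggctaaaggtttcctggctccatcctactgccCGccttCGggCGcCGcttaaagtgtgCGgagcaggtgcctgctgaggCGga
Amt, chr9:108296655-108296924, + strand: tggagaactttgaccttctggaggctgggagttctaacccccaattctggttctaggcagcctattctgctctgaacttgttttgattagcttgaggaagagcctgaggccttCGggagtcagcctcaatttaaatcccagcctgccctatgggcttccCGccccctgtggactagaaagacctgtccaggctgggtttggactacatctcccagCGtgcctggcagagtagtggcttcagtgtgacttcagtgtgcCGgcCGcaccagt
Shmt2, chr10:127522425-127522694, - strand: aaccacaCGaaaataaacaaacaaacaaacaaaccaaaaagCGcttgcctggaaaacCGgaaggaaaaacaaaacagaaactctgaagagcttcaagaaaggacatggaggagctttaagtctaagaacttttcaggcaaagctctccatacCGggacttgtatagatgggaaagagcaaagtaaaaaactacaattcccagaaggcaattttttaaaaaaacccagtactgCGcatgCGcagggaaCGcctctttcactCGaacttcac
Mthfd2, chr6:83317585-83317854, - strand: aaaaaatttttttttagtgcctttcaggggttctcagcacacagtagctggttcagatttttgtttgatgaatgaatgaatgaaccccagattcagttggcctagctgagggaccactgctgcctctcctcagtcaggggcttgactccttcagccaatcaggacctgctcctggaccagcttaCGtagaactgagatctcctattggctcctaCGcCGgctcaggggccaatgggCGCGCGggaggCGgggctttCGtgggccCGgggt
Gcat, which rose, had 21 CG in the 300 bases from 250 before to 50 after its start, and Gldc, which fell, had 10. Amt had 7, Shmt2 13 and Mthfd2 15, and the 9 genes in the table had 7 to 24, beside a median of 7 over all 32851 promoters. For Mthfd1l, 1 of the 9, the annotations used gave opposite strands, so its window may not lie at its start. Methylation was not among the data used here. The E-box CACGTG, searched on both strands, was found in 1 of the 9 promoters, that of Gcat, with its first base 3 bases after the start, and in 7.15% of all promoters. TGATGNAA, the composite site of ATF4 with C/EBP, was found in 0 of the 9 and in 3.97% of all promoters. A match or its absence describes these letters in this window only.

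The shares of single transcripts were compared for the 15 transcripts of 6 of the genes that held at least 5% of the length-scaled reads of their gene. An exact two-sided permutation test, with media exchanged inside each line, called 2 of them, both of Amt (exact permutation p = 0.005, the smallest that 400 arrangements can give, 0.0375 adjusted over 15). At that smallest p, 1 transcript alone could not pass the adjustment, so that the lack of a call does not exclude a change. Shares within 1 gene also depend on each other. Transcript Amt-002 held 46.1% ± 0.752 in J1 serum and 51.9% ± 1.39 in J1 2i, and 46.1% ± 1.11 and 48.8% ± 0.987 in 3B3-3l serum and 2i (SD, n = 3). Transcript Amt-004, a shorter form, held 12.2% ± 2.46 and 8.77% ± 1.81 in J1 and 12.6% ± 2.66 and 8.78% ± 0.712 in 3B3-3l. By shares of estimated reads, without the scaling by length, 0 of 15 were called, and 0 were called without J1 serum replicate 2 or any 1 of the 2i libraries. Most Tdh came from 1 transcript, Tdh-001, at 87.2% ± 0.571 and 92.2% ± 2.41 in J1 serum and 2i and 89.8% ± 2.03 and 90.2% ± 1.27 in 3B3-3l (exact permutation p = 0.06, adjusted 0.225). Shmt1 was spread over several forms, with Shmt1-001 at 29.5% to 36.3% in the group means. A locus within Gm13929 matches the Tdh transcript at 97.2% identity over 76.7% of its length. Gm13929 had 10.3 to 11.8 CPM in J1 serum, 11.6 to 15.1 in J1 2i, 7.16 to 8.81 in 3B3-3l serum and 17.8 to 22.5 in 3B3-3l 2i. These levels are small beside Tdh and their medians have the same order of groups, so that the estimate may split reads between both. Gm15544, a copy of Shmt2 at 91.0% identity, had at most 0.0735 CPM.

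Genes of neighbouring pathways were read from 6 lists. Their counts stand beside a background, over all tested genes, of 33.2% called higher and 32.9% lower in J1 (66.1% in all) and 32.7% each way in 3B3-3l (65.4% in all). In the list of amino acid stress genes, targets and partners of the transcription factor ATF4, 12 of 18 rose and 5 fell in J1, and 11 rose and 3 fell in 3B3-3l, with medians of 0.61 and 0.64 beside 0.01 over all tested genes. Asns, asparagine synthetase, rose in J1 from 300.7 ± 2.5 to 1117 ± 55.9 CPM (1.89 ± 0.05, edgeR adjusted p = 7.23e-14) and in 3B3-3l from 750.4 ± 36.7 to 1729 ± 62.2 CPM (1.2 ± 0.05, edgeR adjusted p = 8.56e-12). Nupr1, a stress-induced chromatin protein, rose by 2.59 ± 0.1 and 2.16 ± 0.1 (edgeR adjusted p = 3.52e-12 and 2.02e-11), and Pck2, the mitochondrial phosphoenolpyruvate carboxykinase, by 1.49 ± 0.09 and 0.96 ± 0.09 (edgeR adjusted p = 7.08e-10 and 1.01e-07). Ddit4, an inhibitor of mTOR signalling, fell by 1.04 ± 0.1 and 2.59 ± 0.11 (edgeR adjusted p = 1.75e-07 and 4.38e-12). The 10 genes themselves were not sorted by regulation through ATF4, and a part of ATF4 in their levels was not tested.

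In the cytosolic and other folate cycle list, 15 of 16 genes were tested, of which 7 rose and 4 fell in J1 and 6 rose and 4 fell in 3B3-3l, with medians of 0.13 and 0.1. The share called in either direction is close to the background in both lines. Aldh1l1, the cytosolic formyltetrahydrofolate dehydrogenase, rose in J1 from 7.96 ± 0.25 to 85.61 ± 2.8 CPM (3.43 ± 0.06, edgeR adjusted p = 1.43e-15) and in 3B3-3l from 8.945 ± 0.766 to 77.22 ± 2.39 CPM (3.11 ± 0.06, edgeR adjusted p = 2.62e-15). Mtfmt, the mitochondrial methionyl-tRNA formyltransferase, rose by 0.43 ± 0.06 and 0.16 ± 0.06 (edgeR adjusted p = 1.67e-05 and 0.0409). Mthfd2l, the paralogue of Mthfd2, fell in J1 from 3.177 ± 0.241 to 0.428 ± 0.0241 CPM and in 3B3-3l from 3.677 ± 0.246 to 0.902 ± 0.0913 CPM (-2.88 ± 0.16 and -2.03 ± 0.14, edgeR adjusted p = 1.42e-10 and 1.94e-09), and is named here after its values were seen.

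Serine synthesis had 0 of 3 genes higher and 1 lower in J1, and 1 higher and 1 lower in 3B3-3l (medians 0.03 and 0.06). Its first enzyme, Phgdh, fell in J1 from 299.1 ± 9.56 to 245.6 ± 26.1 CPM (-0.28 ± 0.07, edgeR adjusted p = 0.00231) and in 3B3-3l from 322.4 ± 27.2 to 244.2 ± 2.81 CPM (-0.4 ± 0.07, edgeR adjusted p = 0.000119). In the methionine and S-adenosylmethionine list, 12 of 13 genes were tested, of which 3 rose and 6 fell in J1 and 3 rose and 5 fell in 3B3-3l (medians -0.19 and -0.07), a called share close to the background in both lines. The spermine synthase Sms fell by 1.18 ± 0.06 and 0.92 ± 0.06 (edgeR adjusted p = 1.15e-10 and 1.81e-09) and the spermidine synthase Srm by 0.97 ± 0.07 and 0.74 ± 0.07 (edgeR adjusted p = 6.61e-09 and 1.73e-07). Methionine synthase, Mtr, rose by 0.39 ± 0.06 and 0.23 ± 0.06 (edgeR adjusted p = 3.71e-05 and 0.00292), and Mtap, which salvages methionine, by 0.18 ± 0.04 and 0.33 ± 0.04 (edgeR adjusted p = 0.00146 and 4.07e-06).

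Purine synthesis, a user of formyl folate, had 3 of 10 genes higher and 4 lower in J1 and 4 higher and 3 lower in 3B3-3l (medians -0.07 and 0.08), again a called share close to the background. Gart, whose enzyme takes up a formyl group, fell in J1 from 677.3 ± 17.4 to 493.1 ± 17.3 CPM and in 3B3-3l from 714.6 ± 16.3 to 528.1 ± 16.6 CPM (-0.46 ± 0.05 and -0.44 ± 0.05, edgeR adjusted p = 2.58e-07 and 4.15e-07). Impdh1, of the guanine branch, fell by 0.43 ± 0.08 and 0.65 ± 0.08 (edgeR adjusted p = 0.000154 and 2.19e-06), while Adsl and Adss, which make AMP, rose by 0.25 ± 0.05 and 0.25 ± 0.05 in J1 (edgeR adjusted p = 0.000683 and 0.000344) and by 0.34 ± 0.05 and 0.2 ± 0.05 in 3B3-3l (edgeR adjusted p = 3.57e-05 and 0.00199). The lipoylation list, which holds genes for the cofactor of Gcsh and for other complexes that carry it, had 5 of 8 higher and 0 lower in J1 and 2 higher and 1 lower in 3B3-3l (medians 0.18 and -0.03). Of these, Dbt rose by 0.23 ± 0.05 and 0.17 ± 0.05 (edgeR adjusted p = 0.00108 and 0.00927) and Pdhx by 0.19 ± 0.05 and 0.27 ± 0.05 (edgeR adjusted p = 0.00249 and 0.000128).

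**Figure D4:**
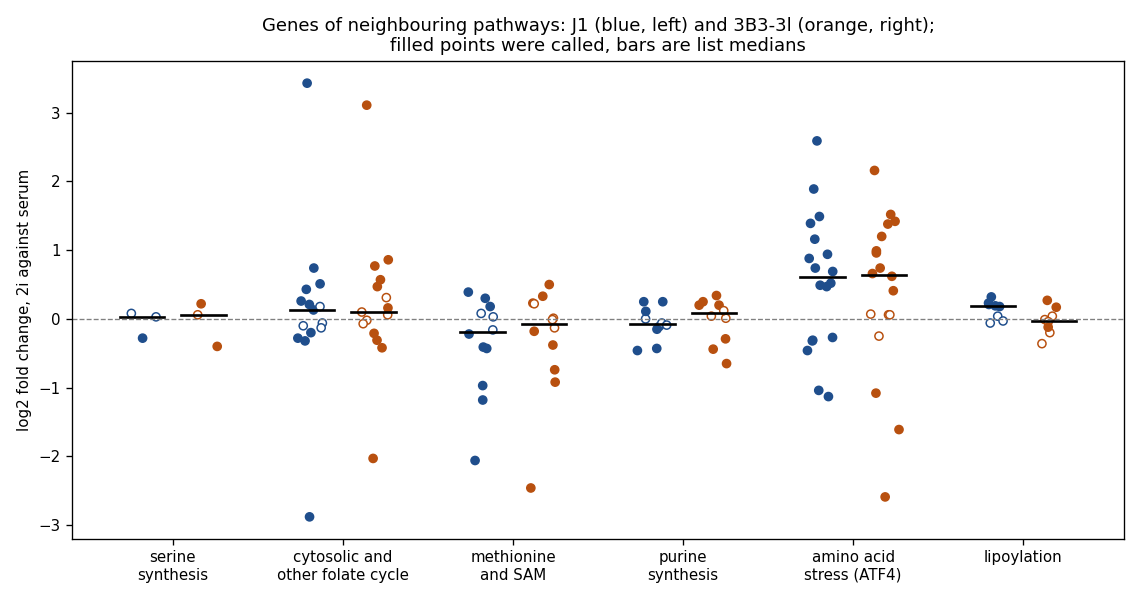
Log2 fold change between 2i and serum for each tested gene of 6 neighbouring lists, in J1 (blue, left of each pair) and 3B3-3l (orange, right). Filled points were called at an edgeR adjusted p under 0.05, bars are list medians, and the amino acid stress list has the highest medians, 0.61 and 0.64.

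The genes with the pattern most like that of Tdh over the 12 libraries, by Pearson r of log2 CPM among 9280 genes whose mean reached 10 CPM, were Crtap (r = 0.995), Nubp1 (0.994) and Sod2 (0.992). Crtap had group means of 53.13, 68.13, 44.37 and 80.37 CPM in J1 serum, J1 2i, 3B3-3l serum and 3B3-3l 2i, the order of groups that Tdh has. Those nearest to Gldc were Spna1 (0.997), A230050P20Rik (0.996) and Sned1 (0.995), and Spna1 had 16.26, 1.175, 24.68 and 4.98 CPM. Nearest to Mthfd2 were Mks1 (0.979), Ggcx (0.976) and Accsl (0.976). Among the 10 genes, Tdh and Gcat had r = 0.969, Gldc and Mthfd2 -0.951, and Tdh and Gcsh -0.136. These values describe 12 libraries that share 4 groups, and most of the spread they follow is that between groups.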

How the data were processed

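Stranded poly(A) libraries were made and sequenced (NextSeq) by the authors, who estimated transcript abundance with Sailfish, strand-aware, on mm10 models. The deposited gene table holds estimated counts, summarised by the authors with tximport, and the deposited transcript tables hold estimated counts and TPM per transcript. Libraries held 37050652 to 44515395 estimated reads. The floor of 3 reads allows for counting error only.

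Counts were rounded to whole numbers. Genes were kept by filterByExpr (17885 of 39017), scaled by TMM (0.97 to 1.038) and fitted in edgeR 4.0.16 (R 4.3.3) with the quasi-likelihood test, 1 coefficient per group over 12 libraries and a biological coefficient of variation of 6.49%. The threshold for a call was 0.05 after Benjamini-Hochberg adjustment across all tested genes. Log2 fold changes are given with SE, and CPM with SD over 3 libraries. Effective lengths came from the transcript tables, whose sums equalled the gene table for all 10 genes. Copies were sought with minimap2 2.31-r1302 (at least 85% identity over at least 50% of the transcript) in NCBIM37, from which no coordinates are given. Coordinates are those of RefSeq on GRCm38.

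The genes and lists were chosen with earlier results of these data known. All 10 genes are named, with at most 4 genes from each list (called in both lines in the same direction without overlap, largest change in J1) and the 3 genes most like Tdh, Gldc and Mthfd2. Of the list genes so chosen, some are left out here. Alternatives were DESeq2 1.42.0 size factors and Wald test, other filters, length offsets, transcript sums, fits to the libraries compared, a 2-fold threshold, a replicate block and leaving out each library. The scripts were tested on simulated data.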

Additional observations from a re-analysis of the deposited data

Results flagged for a closer look

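The effect of 2i differed between the lines, by a test of the difference itself in edgeR, for 6 of the 10 genes. The difference, 3B3-3l minus J1 on the log2 scale, was 0.82 for Tdh, 0.66 for Gldc, 0.54 for Shmt1, 0.44 for Gcat, 0.36 for Gcsh and 0.2 for Amt, beside 34.7% of all tested genes with a called difference. That of Amt was called in 9 of 19 alternatives, and those of the other 5 genes in all 19, a 2-fold threshold left out. In serum the lines also differed in culture surface, so that line and surface cannot be told apart in the serum values behind these differences. With 3 libraries in a group, Dixon's test for a single outlying value was not run.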

How the results depend on the processing

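Of 1040 values of the 10 genes under other settings, 960 kept their direction and their side of the threshold, 59 were no longer called, 9 became called and 12 changed sign. A test against a 2-fold threshold called 2756 genes in J1 (1 of the 10, Gldc), 2968 in 3B3-3l (3 of the 10), 420 between the lines in 2i, 91 between the lines in serum and 304 for the difference of the 2i effects (0 of the 10 in each of these 3, where edgeR with no such threshold called 6, 7 and 6). Such a test asks for a larger change by its construction. The sign changes were those of Gcsh in 3B3-3l, never called, and of Shmt2 between the lines in 2i without J1 2i replicate 1 (0.03). Gcsh stood at -0.01 with DESeq2 size factors, with no filter, with the DESeq2 Wald test and without 3B3-3l serum replicate 3, at -0.05 with at least 10 counts in every library, at -0.04 with length offsets and without 3B3-3l 2i replicate 2, at 0.0 in the 6 libraries compared and at -0.02 without any 1 J1 serum replicate. Over all the fits without 1 library it spanned -0.04 to 0.02, and Shmt2 between the lines in 2i spanned -0.1 to 0.03. The cause was not tested. Mthfd1l in 3B3-3l became called with at least 10 counts in every library (-0.13).

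Without any 1 library, 11115 to 12026 genes were called in J1 (7 to 8 of the 10), 10929 to 12058 in 3B3-3l (7 to 8), 7116 to 8369 between the lines in 2i (6 to 7), 5534 to 7406 between them in serum (6 to 8) and 5225 to 6857 for the difference (5 to 7). Transcripts with a called share numbered 0 by estimated reads and 0 to 2 without 1 library. They were 0 without J1 serum replicate 2 or any 1 of the 2i libraries. The replicate numbers did not pair the samples, with correlations of same-numbered libraries of -0.22 to 0.05. With the replicate number as a block, 11543, 11408, 7784, 6383 and 5623 genes were called in the 5 comparisons, in the same order, and 8, 8, 6, 7 and 6 of the 10.

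Replicates are separate samples per the labels, libraries of 1 line each, and the sequencing pool of each library was not given in the sources used here. Depth did not limit the 10 genes, whose lowest level was far above the floor, and the spread over 3 libraries sets the precision.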

Other observations

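Atf4, the transcription factor that names the amino acid stress list, rose in J1 from 224.9 ± 5.54 to 430.1 ± 39.5 CPM (0.94 ± 0.06, edgeR adjusted p = 1.33e-09) and in 3B3-3l from 223.1 ± 10.3 to 372.3 ± 10.8 CPM (0.74 ± 0.06, edgeR adjusted p = 2.05e-08). Gnmt, the glycine N-methyltransferase, fell in J1 from 3.975 ± 0.138 to 0.956 ± 0.435 CPM (-2.06 ± 0.22, edgeR adjusted p = 4.26e-07) and in 3B3-3l from 4.416 ± 0.159 to 0.8002 ± 0.0712 CPM (-2.46 ± 0.22, edgeR adjusted p = 6.47e-08). Both are named after their values were seen.

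Between the lines in serum, 7 of the 18 amino acid stress genes were called higher in 3B3-3l and 5 lower, beside 21.5% and 17.2% of all tested genes. In 2i, 4 were higher and 4 lower, beside 23.0% and 22.9%, a count close to the background. The medians were -0.04 and -0.02. The difference of the 2i effects was called higher in 3B3-3l for 5 of the 18 and lower for 7, beside 16.3% and 18.3% of all tested genes. Of 10 purine synthesis genes, 1 had a called difference between the 2i effects (34.7% of all tested genes).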
